A study of Mus musculus with 8 samples.

Results

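The genes of mitochondrial ribosomal proteins were followed in T cells that had developed in NOD or B16A mouse hosts. Every row of the raw count table whose symbol was Mrpl or Mrps followed by a number and at most 1 letter was taken, which gave 77 of 46625 rows. Of these, 48 carry a large-subunit symbol (Mrpl) and 29 a small-subunit symbol (Mrps), and 5 pseudogene rows were left out. The rule uses symbols and no measured value. The cells were CD4 T cells of the clone 8F10, whose T cell receptor is specific for an insulin peptide. Their donors lacked the endogenous T cell receptor alpha chain and carried CD45.2. Donor bone marrow depleted of T and B cells was put into NOD or B16A hosts carrying CD45.1 that had been irradiated below a lethal dose, so the hosts kept blood-forming cells of their own. B16A hosts are, as background, NOD mice that lack their native insulin genes and make an insulin with a changed residue in the B chain. The labels give the strain NOD/ShiLtJ for all samples and no host age. After 6 weeks the 8F10 cells were sorted from inguinal lymph nodes, and each host had 4 libraries, 1 in each of 4 batches. The comparison asks how the same T cells differ between the hosts, here for the translation machinery of mitochondria. Whether the 4 libraries of a host came from separate animals is not stated in the labels; p-values here rest on the spread among these libraries, part of which may be technical.

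Mitochondria keep their own ribosome, the mitoribosome, which makes the few proteins encoded in mitochondrial DNA. These are core subunits of the respiratory chain and of ATP synthase. All mitoribosomal proteins are encoded in the nucleus, made in the cytosol and imported, while the ribosomal RNAs come from mitochondrial DNA. The small subunit binds the mRNA and reads its codons. The large subunit forms peptide bonds and hands the new chain to the inner membrane. T cells that are activated enlarge their mitochondria and their capacity for mitochondrial translation.

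The libraries fell into 2 kinds by batch. Total counts were 4896593 to 6137666 in the 6 libraries of batches 1 to 3, and 28301805 (NOD) and 28094237 (B16A) in batch 4. The batch 4 libraries detected 19751 and 20723 genes, against 29729 to 33175 in the others. The gene model Gm10800 took 10.8%, 17.1%, 11.1% and 0.00205% of the counts in the NOD libraries of batches 1 to 4, and 8.38%, 5.87%, 10.6% and 0.00469% in the B16A libraries. The 6 T cell markers (Cd4, Cd3e, Cd3g, Trbc1, Trac and Lck) were above 0 in every library, and summed to 4080 to 12600 CPM (read counts scaled to normalized library sizes). Their sum was 5900, 4550, 7600 and 12600 CPM in the NOD libraries and 5430, 4080, 5350 and 9060 CPM in the B16A libraries, so the sum was higher in the NOD library of every batch. Of the single markers only Lck was higher in the NOD library of every batch (log2 ratios 0.43, 0.08, 0.60 and 0.90). In batches 1 to 4, 3, 2, 5 and 5 of the 6 markers were higher in the NOD library. Trbc1 stood at 2370 and 1600 CPM (NOD) against 1830 and 835 CPM (B16A) in batches 1 and 2. The 5 B cell markers summed to 2.11 to 20.7 CPM and the 8 myeloid markers to 9.23 to 89.0 CPM, both highest in the NOD library of batch 2. At 0 in batch 4 were Cd79b, Cd14 and Itgax (NOD) and Lyz2, Adgre1, Cd14 and Itgax (B16A), and none of these B cell and myeloid markers in batches 1 to 3. The 4 CD8 T and NK cell markers summed to 65.6 to 184 CPM, of which Cd8b1 made up 61.9 to 184 CPM, with Cd8a at 0 in the NOD library of batch 4 and at 1.08 to 3.52 CPM elsewhere. The part of these differences in the results on the mitoribosome was not tested. In bulk RNA, fewer cells of a type and less RNA per cell cannot be told apart.

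No mitoribosomal protein gene passed the test for a difference between the hosts after adjustment over all genes. Of the 77 genes 73 had enough counts to be tested, 47 of the large and 26 of the small subunit. None had an adjusted p under 0.05 (edgeR's quasi-likelihood test with batch as a term and Benjamini-Hochberg adjustment), and neither had any other gene, a background of 0% of 14607. Limma voom called 0 of the 73 too. DESeq2 also called 0, but it gave no adjusted p to most of the members named with full values, which it could not call. In the edgeR fit 9 of the 73 genes (12.3%) stood at an unadjusted p under 0.05, all higher in NOD hosts. Of these 9 only Mrpl37 had an adjusted p from DESeq2 (0.347). Over all tested genes 3.55% were higher and 2.31% lower at that level, 5.87% in all. The 9 genes are Mrpl46, Mrps6, Mrpl20, Mrpl43, Mrpl34, Mrpl49, Mrpl37, Mrps18c and Mrps18a. The smallest adjusted p among the members was 0.683 (edgeR), so none of these differences passed. Without the batch term 1 of the 73, Mrps6, stood at an unadjusted p under 0.05. Without batch 3 there were 5, namely Mrpl46, Mrps6, Mrpl20, Mrpl43 and Mrpl49. In these 2 fits the share of all tested genes at that level was lower too, at 0.233% and 3.4%, against 5.87% in the main fit.

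Most members leaned to NOD hosts by a small amount. A positive log2 fold change, NOD over B16A host, was found for 53 of the 73 (72.6%), against 51.3% of all tested genes. The median log2 fold change was 0.15, against 0.01 over all tested genes. The values ran from -0.49 (Mrps26) to 0.83 (Mrps6), with standard errors (SE) of 0.16 to 0.62 and a median standard error of 0.23. The CPM ranges of the host groups overlapped for all 73 members, and 0.596% of all tested genes had ranges that did not overlap. For 57 of the 73 the 95% confidence interval lay within -1 and 1, so that a 2-fold difference in either direction was outside it. The interval reached 1 for 13 members and -1 for 3 (Mrpl51, Mrps2 and Mrps26).

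**Figure D1:**
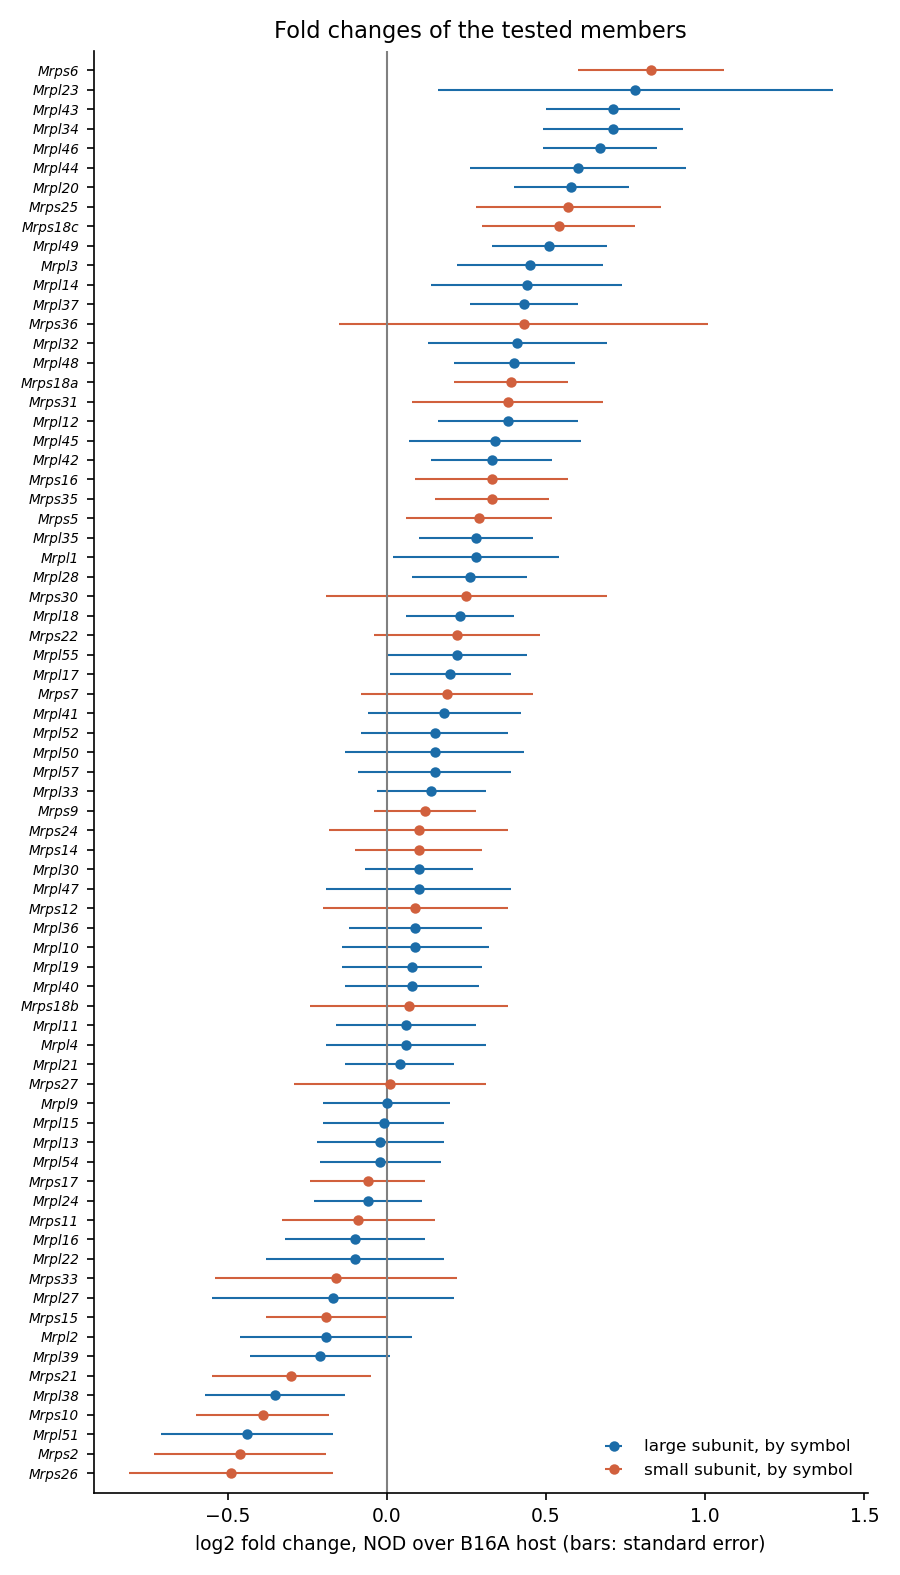
Log2 fold change of each of the 73 tested members, NOD over B16A host, with batch as a term (horizontal axis; points, fitted value; bars, 1 standard error; blue, Mrpl symbols; orange, Mrps symbols; vertical line, no difference). The points run from -0.49 for Mrps26 to 0.83 for Mrps6, 53 lie above 0, and none has an adjusted p under 0.05.

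The lean to NOD hosts differed in size between batches. Of the 73 members, 44, 39, 53 and 48 had the higher CPM in the NOD library of batches 1, 2, 3 and 4 (60.3%, 53.4%, 72.6% and 65.8%). The same shares over all tested genes were 50.0%, 53.4%, 48.0% and 46.4%. In batch 2 the members' share was thus the background's. The median within-batch log2 ratio of the members was 0.07, 0.10, 0.27 and 0.18 in batches 1 to 4, against 0.00, 0.05, -0.03 and 0.00 for all tested genes. Higher in the NOD library of all 4 batches were 16 members (21.9%, background 7.43%), and lower in all 4 were 2 (2.74%, background 6.85%). The 16 hold the 9 genes named above and Mrpl12, Mrpl28, Mrpl3, Mrpl35, Mrpl44, Mrpl48 and Mrps35. The ranking of the members by ratio differed between batches. Spearman's rho of the 73 within-batch ratios between a pair of batches ran from -0.23 (batches 1 and 4) to 0.38 (batches 1 and 2). Over all tested genes it ran from -0.048 (batches 2 and 4) to 0.12 (batches 1 and 3). These are descriptions across genes, which are not independent replicates and take their values from 1 library of each host in a batch.

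**Figure D2:**
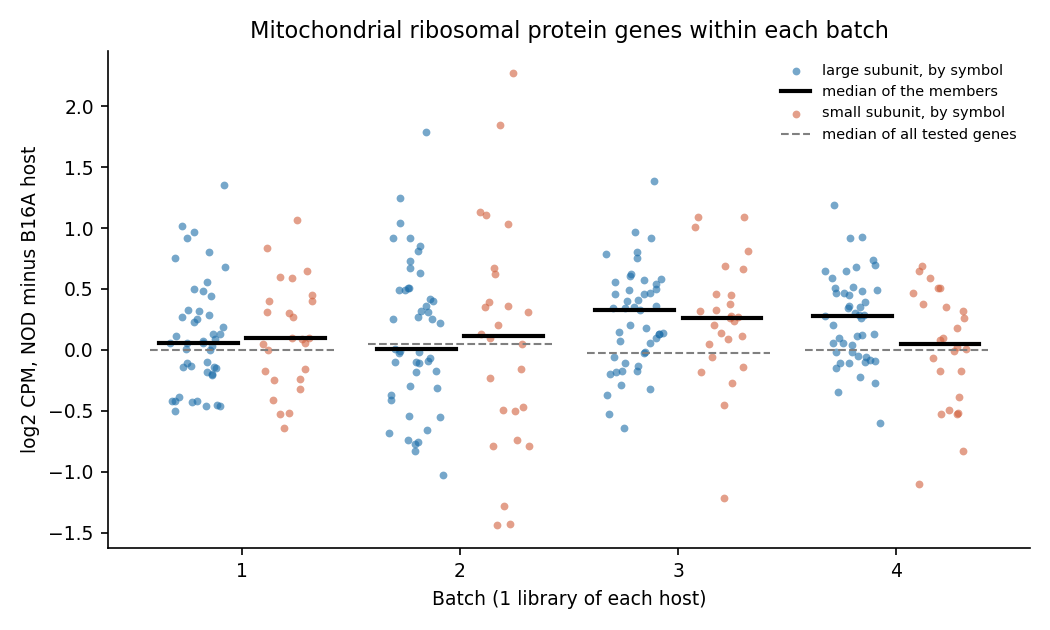
Log2 ratio of CPM, NOD minus B16A host, within each batch for the 73 tested members (points, 1 gene each, jittered sideways; blue, Mrpl symbols; orange, Mrps symbols; black lines, their medians; dashed lines, median of all 14607 tested genes). A point compares 1 library of each host and so has no error bar; the members' medians lie farthest above the dashed line in batch 3.

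The large subunit's central protuberance, the knob that faces the small subunit, had the member with the smallest p. Its 8 genes had a median log2 fold change of 0.18, and 6 were positive. Mrpl46, one of its mitochondria-specific proteins, stood at 22.1, 14.6, 17.3 and 106 CPM in the NOD libraries of batches 1 to 4, and at 11.6, 9.10, 11.2 and 75.5 CPM in the B16A libraries. The NOD library was higher in every batch, by log2 ratios of 0.92, 0.67, 0.62 and 0.49, but the host groups overlapped, since each batch 4 library lies far above all others. The fitted log2 fold change was 0.67 (SE 0.18; edgeR, adjusted p = 0.683). Mrpl38, another protein of the protuberance, was lower in the NOD library of every batch: 16.3, 12.9, 13.1 and 23.9 CPM against 18.05, 22.2, 15.98 and 27.9 CPM. Its log2 fold change was -0.35 (SE 0.22; edgeR, adjusted p = 0.916). Mrpl18, a protein of the protuberance with a bacterial relative, stood at 19.2, 11.6, 25.5 and 208 CPM in NOD and 17.7, 12.5, 19.8 and 152 CPM in B16A libraries. It was higher in the NOD library of batches 1, 3 and 4 and slightly lower in batch 2 (log2 fold change 0.23, SE 0.17).

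Mrpl46 lies head to head with a small-subunit gene, Mrps11, and the pair had different host ratios. Mrpl46 is on the minus strand of chromosome 7 at 78775236 to 78783531 and Mrps11 on the plus strand at 78783119 to 78792989 (GRCm38, the assembly that mm10 denotes). Their annotated exons share 173 bases on opposite strands, 12.2% of those of Mrpl46 and 8.0% of those of Mrps11. The sources used here do not say whether the counting used strand, so reads in that stretch cannot be assigned to either gene. Mrps11, a protein of the small subunit's platform, stood at 10.2, 5.73, 10.01 and 44.9 CPM in NOD and 9.78, 8.02, 13.7 and 34.5 CPM in B16A libraries. Its within-batch log2 ratios were 0.06, -0.47, -0.45 and 0.38, and its log2 fold change was -0.09 (SE 0.24; edgeR, adjusted p = 0.996). The start sites of the pair in RefSeq are 42 bases apart. The windows from 250 bases before to 50 after each start are printed because they share 141 bases, so that the same DNA lies at the start of genes with log2 fold changes of 0.67 and -0.09, a difference that was not tested. Both are written 5′ to 3′ on the gene's own strand (RefSeq, GRCm38.p6), Mrpl46 from chr7:78783040-78783339 and Mrps11 from chr7:78782881-78783180. Capitals mark the motif AAGATGGC, bound by the factor YY1, on either strand; it occurs once, reversed, in the window of Mrps11, outside the printed window of Mrpl46.
Mrpl46: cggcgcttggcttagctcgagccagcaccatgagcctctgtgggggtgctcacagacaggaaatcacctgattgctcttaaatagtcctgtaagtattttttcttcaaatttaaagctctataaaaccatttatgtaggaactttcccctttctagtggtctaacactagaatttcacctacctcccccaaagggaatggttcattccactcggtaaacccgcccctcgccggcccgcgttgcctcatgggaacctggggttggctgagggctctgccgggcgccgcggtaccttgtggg
Mrps11: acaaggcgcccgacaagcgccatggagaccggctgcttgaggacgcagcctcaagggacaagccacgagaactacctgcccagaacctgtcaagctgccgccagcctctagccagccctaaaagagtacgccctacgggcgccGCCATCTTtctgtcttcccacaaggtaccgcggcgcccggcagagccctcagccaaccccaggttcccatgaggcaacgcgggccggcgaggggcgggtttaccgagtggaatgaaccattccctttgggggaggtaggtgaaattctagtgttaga

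The stalks of the large subunit, which recruit translation factors and hold the exit site for tRNA, had a median log2 fold change of 0.09 over 5 tested genes. Mrpl12, the stalk protein that also binds the mitochondrial RNA polymerase, stood at 20.9, 18.3, 25.99 and 30.7 CPM in NOD libraries. In B16A libraries it stood at 14.9, 9.56, 23.3 and 29.9 CPM. It was higher in the NOD library of every batch, but hardly so in batch 4 (log2 ratio 0.04), with a log2 fold change of 0.38 (SE 0.22; edgeR, adjusted p = 0.895). Mrpl54 stood at 17.7, 11.1, 18.2 and 53.5 CPM in NOD and 19.7, 11.3, 18.5 and 49.8 CPM in B16A libraries, with a log2 fold change of -0.02 and a 95% interval of -0.42 to 0.38. The stalk gene Mrpl53 was too low to test, at 0 to 1.08 CPM in every library.

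At the exit of the peptide tunnel, where the ribosome meets the inner membrane, the median was 0.15 over 8 genes, 5 of them positive. Mrpl45, the anchor to the inner membrane, stood at 7.82, 7.76, 11.1 and 36.7 CPM in NOD and 10.8, 4.01, 7.51 and 28.6 CPM in B16A libraries. It was lower in the NOD library of batch 1 and higher in the other batches (log2 fold change 0.34, SE 0.27; edgeR, adjusted p = 0.942). It was 0.59 without batch 1 and 0.17 without batch 2.

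Among the 19 other large-subunit genes with a bacterial relative the median was 0.10, and 14 were positive. Mrpl20, whose bacterial relative is needed early in the assembly of the large subunit, stood at 21.6, 15.1, 32.5 and 115 CPM in NOD libraries and 15.2, 12.2, 19.2 and 70.8 CPM in B16A libraries. Its log2 ratios of 0.50, 0.31, 0.75 and 0.70 lay close together, with a log2 fold change of 0.58 (SE 0.18; edgeR, adjusted p = 0.683). Mrpl34, one of the smallest proteins of the subunit, stood at 25.7, 26.2, 40.8 and 42.8 CPM in NOD and 20.5, 14.5, 15.5 and 33.8 CPM in B16A libraries. Without batch 4 its host groups would not overlap, since the lowest NOD library exceeds the highest B16A library of batches 1 to 3. Other members with that order in batches 1 to 3 include Mrpl14, Mrpl43, Mrpl44, Mrpl46, Mrpl48 and Mrps6. How many of all tested genes separate in those batches was not counted, so the order does not set Mrpl34 apart. The log2 ratio was largest in batch 3 (1.39) and the log2 fold change was 0.71 (SE 0.22; edgeR, adjusted p = 0.683). Mrpl21 had the narrowest spread of ratios among members with a mean of at least 10 CPM. It stood at 18.4, 10.9, 15.8 and 103 CPM in NOD and 17.4, 10.9, 14.7 and 104 CPM in B16A libraries, with ratios of 0.07, -0.01, 0.10 and -0.02. Its log2 fold change was 0.04 with a 95% interval of -0.33 to 0.41. The 2 libraries of a batch were thus close in every batch, while the level itself was 7.02-fold higher in batch 4 than in batches 1 to 3.

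The other mitochondria-specific genes of the large subunit had the highest median among the role groups of more than 1 gene, 0.25, with 8 of 9 positive. Mrpl43 stood at 17.5, 19.8, 27.8 and 61.8 CPM in NOD and 15.3, 8.17, 14.5 and 42.9 CPM in B16A libraries. It was higher in the NOD library of every batch, most in batch 2 (log2 ratio 1.25) and least in batch 1 (0.19), with a log2 fold change of 0.71 (SE 0.21; edgeR, adjusted p = 0.683). Its annotated exons share 33.4% of their bases with Twnk on the opposite strand. Mrpl49 stood at 24.7, 29.9, 27.6 and 61.6 CPM in NOD and 20.5, 21.0, 18.4 and 39.2 CPM in B16A libraries. In batches 1 to 3 every NOD library exceeded every B16A library, as for Mrpl34 and the members named with it. The share of this order over all tested genes was not counted. The log2 fold change was 0.51 (SE 0.18; edgeR, adjusted p = 0.763). Mrpl37 stood at 80.2, 56.0, 85.6 and 42.01 CPM in NOD and 67.2, 55.5, 60.7 and 22.1 CPM in B16A libraries. Batch 4 gave it the largest ratio (0.92) and batch 2 almost none (0.01), with a log2 fold change of 0.43 (SE 0.17; edgeR, adjusted p = 0.821). Mrpl51 went the other way in every batch: 7.65, 5.54, 8.56 and 15.9 CPM in NOD against 8.72, 10.02, 9.27 and 24.3 CPM in B16A libraries (log2 fold change -0.44, SE 0.27; edgeR, adjusted p = 0.916).

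In the small subunit the median was 0.10 over 15 genes with a bacterial relative, 9 of them positive. Mrps6, a platform protein that touches the small-subunit RNA, had the largest fitted difference of all members. It stood at 20.2, 22.5, 31.8 and 14.3 CPM in NOD and 13.4, 10.3, 14.9 and 9.98 CPM in B16A libraries. Only the NOD library of batch 4 fell into the B16A range, and the log2 ratios were 0.59, 1.11, 1.09 and 0.51. Its log2 fold change was 0.83 (SE 0.23; edgeR, adjusted p = 0.683). Mrps6 (chromosome 16, 92058270 to 92112227, plus strand, GRCm38) shares its first exon region with Slc5a3, a myo-inositol transporter gene on the same strand whose RefSeq start lies 14 bases away. Slc5a3 had log2 ratios of 0.77, -0.36, 0.48 and -1.10 and a log2 fold change of -0.09 (SE 0.28), so the 2 genes with adjoining starts had ratios of opposite sign in batches 2 and 4.

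Mrps12, a decoding-centre protein, stood at 10.4, 4.43, 7.10 and 35.1 CPM in NOD and 6.77, 7.55, 4.32 and 39.6 CPM in B16A libraries. Its direction alternated between batches (log2 fold change 0.09, SE 0.29). Mrps14, a protein of the small subunit's head, stood at 7.48, 9.61, 12.3 and 342 CPM in NOD and 11.7, 10.8, 8.95 and 241 CPM in B16A libraries. Host ratios went down in batches 1 and 2 and up in batches 3 and 4, for a log2 fold change of 0.10 (SE 0.20). Mrps21, a small protein with a bacterial relative, stood at 9.69, 4.80, 12.4 and 71.9 CPM in NOD and 9.02, 13.3, 11.5 and 81.0 CPM in B16A libraries. Its log2 fold change of -0.30 (SE 0.25) was -0.01 without batch 2, where the ratio was -1.43. The mitochondria-specific small-subunit genes had a median of 0.15 over 8 tested genes, 6 of them positive. Mrps25 had the widest spread of ratios among members with a mean of at least 10 CPM. It stood at 16.3, 20.5, 15.5 and 38.3 CPM in NOD and 19.3, 5.55, 12.3 and 27.5 CPM in B16A libraries, and the low B16A library of batch 2 gave a ratio of 1.85. The log2 fold change was 0.57 (SE 0.29) and, without batch 2, 0.20. Its annotated exons share 69.8% of their bases with Nr2c2 on the opposite strand.

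Mrps2, a small-subunit protein singled out after its values were seen, differed between batches in direction. It stood at 19.2, 27.0, 16.3 and 15.7 CPM in NOD and 27.8, 46.7, 38.4 and 9.65 CPM in B16A libraries. In batches 1 to 3 every B16A library exceeded every NOD library, and in batch 4 the order turned (log2 ratios -0.53, -0.79, -1.22 and 0.69). Mrpl51 was also lower in every NOD library than in every B16A library of batches 1 to 3. The share of all tested genes with such an order in batches 1 to 3 was not counted. With all batches the log2 fold change was -0.46 (SE 0.27; edgeR, adjusted p = 0.907). Without batch 4 it was -0.85 and had the lowest adjusted p of any member in that fit, 0.0632 (edgeR), where Mrps6 had 0.94 (adjusted p = 0.0766) and Mrpl34 0.86 (adjusted p = 0.0984). That fit called 32 of 15716 genes, and none of them was a member.

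**Figure D3:**
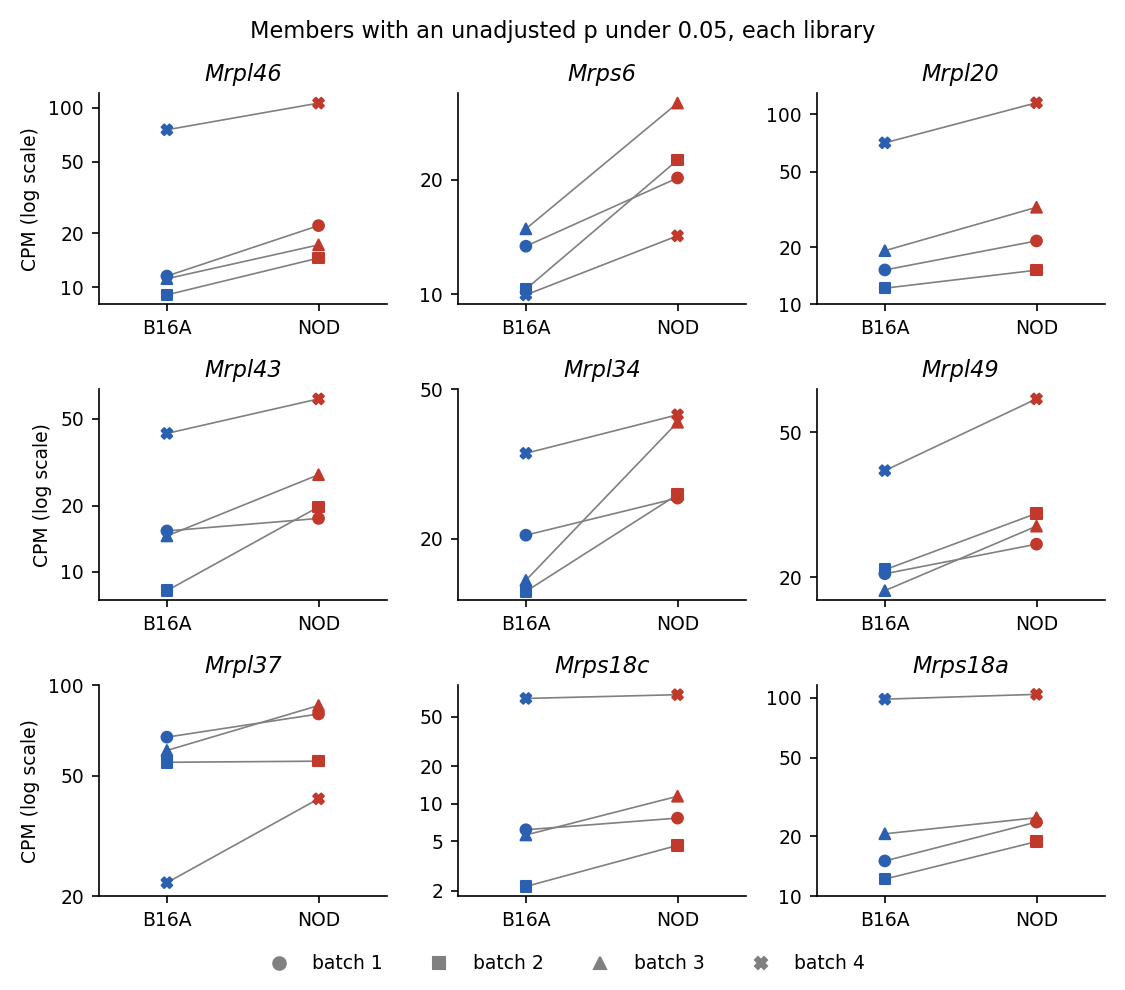
CPM in each library (log axes that differ between panels) of the 9 members with an unadjusted p under 0.05, B16A host in blue at left and NOD host in red at right. Each line joins the 2 libraries of a batch and there is no error bar, since each point is 1 library; every line climbs to the NOD side, and for 7 of the 9 genes batch 4 (crosses) lies above the other batches, while for Mrps6 and Mrpl37 it lies below.

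The 3 paralogs of bacterial ribosomal protein S18 have taken up different places in the mitoribosome. Mrps18a sits in the large subunit and Mrps18b and Mrps18c in the small one. Mrps18a stood at 23.6, 18.8, 24.9 and 104 CPM in NOD and 15.0, 12.2, 20.6 and 98.6 CPM in B16A libraries, with a log2 fold change of 0.39 (SE 0.18; edgeR, adjusted p = 0.844). Mrps18c, at the site that S18 holds in bacteria, stood at 7.65, 4.62, 11.5 and 75.1 CPM in NOD and 6.17, 2.16, 5.59 and 70.0 CPM in B16A libraries (0.54, SE 0.24; edgeR, adjusted p = 0.844). Both were higher in the NOD library of all 4 batches and differed least in batch 4 (log2 ratios 0.08 and 0.10). Mrps18b stood at 3.91, 7.76, 5.65 and 20.3 CPM in NOD and 5.26, 7.25, 5.12 and 15.9 CPM in B16A libraries, with a log2 fold change of 0.07 (SE 0.31). The difference between the paralogs was not tested. Mrps30, a large-subunit protein in spite of its symbol, stood at 6.80, 4.62, 8.72 and 7.22 CPM in NOD and 6.32, 2.00, 4.00 and 15.7 CPM in B16A libraries, so batch 4 went against the others (0.25, SE 0.44). Mrps36, which was reassigned from the ribosome to the 2-oxoglutarate dehydrogenase complex, stood at 2.04, 3.69, 0.969 and 8.68 CPM in NOD and 1.504, 0.617, 1.12 and 12.6 CPM in B16A libraries (0.43, SE 0.58). With members placed by structure and not by symbol, the median was 0.15 over 49 large-subunit and 0.10 over 23 small-subunit genes. By symbol it was 0.15 over 47, with 35 positive, and 0.11 over 26, with 18 positive.

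The members not tested were Mrpl53, Mrps34, Mrps28 and Mrps23. Mrps23 had 0 counts in all 8 libraries, which at 91057310 counts in total allows up to 0.0329 CPM of counted reads, counting error only. Mitochondrial mRNAs that every cell uses, such as mt-Co3 and mt-Atp6, were also at 0 in every library, so a 0 in this table is not a limit on expression. Mrps34 ranged from 0.369 to 1.05 CPM in batches 1 to 3, against 6.91 (NOD) and 10.7 (B16A) CPM in batch 4. It was lower in the NOD library of every batch (log2 ratios -0.51, -0.53, -0.30 and -0.62). In batches 1 to 3 these rest on 2 to 7 counts a library. The exons of Mrps34 and Mrpl53 overlap other genes over 77.8% and 88.0% of their bases, so what is counted for them depends on how overlapping reads were treated. Across the 77 members 32 share exon bases with another gene, 27 of them with a gene on the opposite strand. The tested members with such an overlap had a median log2 fold change of 0.12 (30 genes) and those without it 0.15 (43 genes). Of the 9 genes at an unadjusted p under 0.05, Mrpl43, Mrpl46, Mrpl49, Mrps6 and Mrps18c have such an overlap, and their values are uncertain by the reads that fall in it.

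The level of the mitoribosomal genes depended on the batch far more than on the host. Their summed level was 1143, 942.5, 1283 and 4654 CPM in the NOD libraries of batches 1 to 4, and 1088, 899.3, 1062 and 4016 CPM in the B16A libraries. In each batch the NOD library was higher, by a factor of 1.05, 1.05, 1.21 and 1.16, while batch 4 lay above every other library. As a share of all counts the members took 0.0967% to 0.129% in batches 1 to 3 and 0.371% (NOD) and 0.345% (B16A) in batch 4. The median member had 59 to 86 counts in a library of batches 1 to 3 and 1064 and 947 counts in batch 4, so counting error is largest in batches 1 to 3. The summed level of the large-subunit genes was 1.98 to 2.22 times that of the small-subunit genes in all 8 libraries, in both kinds of batch.

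Mean CPM was higher in batch 4 than in batches 1 to 3 for 69 of the 73 members (94.5%), against 45.0% of all tested genes. The median log2 difference was 2.02 for the members and -0.25 for all tested genes. The difference was not uniform among subunits of the same particle. Mrps14 was 28.8-fold higher in batch 4 (10.1 and 292 CPM), Mrpl32, a protein processed on import before it joins the ribosome, was 19.8-fold higher, and Mrpl18 10.1-fold. Among the members not tested, Mrps28 went from 0.554 to 1.60 CPM in batches 1 to 3 to 55.3 and 36.6 CPM in batch 4. Lower in batch 4 were Mrps2 (0.433-fold), Mrpl37 (0.475-fold), Mrps6 (0.642-fold) and Mrps10 (0.894-fold). Each batch holds both hosts, and the labels do not say in what else batch 4 differed. Depth, detected genes and the share of Gm10800 differ with it, as given above, and their part in the levels was not tested.

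**Figure D4:**
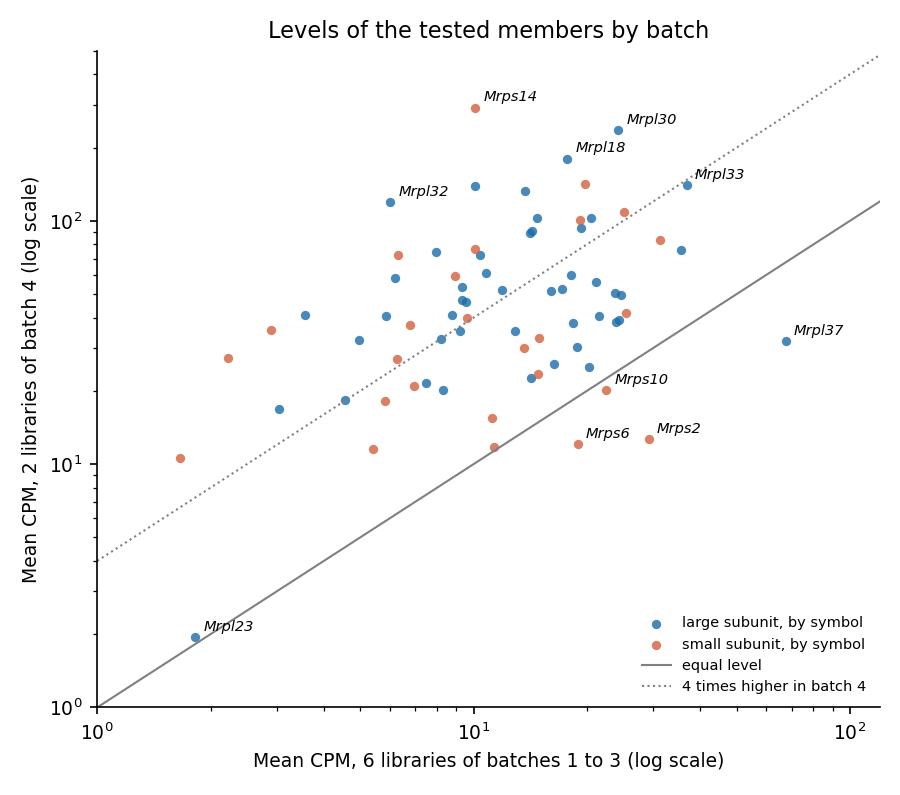
Mean CPM of each tested member in the 6 libraries of batches 1 to 3 (horizontal, log scale) and the 2 libraries of batch 4 (vertical, log scale), blue for Mrpl and orange for Mrps symbols, 1 point per gene with no error bar. The solid line marks equal levels and the dotted line a level 4 times higher in batch 4; Mrps2, Mrpl37, Mrps6 and Mrps10 lie below the solid line and 69 genes above it.

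Per length, on the scale of CPM per kilobase of annotated exon over all libraries, the most abundant large-subunit genes were Mrpl34 (45.3), Mrpl18 (41.7) and Mrpl54 (30.3). In the small subunit they were Mrps21 (36.1), Mrps14 (24.7) and Mrps18c (21.2). The length is that of all annotated exons of a gene merged, from 607 bases (Mrpl34) to 8631 bases (Mrps35). This ranking thus depends on the annotation as well as on the counts. The order changes with the batch: in batches 1 to 3 alone the highest were Mrpl34 (39.3), Mrpl54 (19.5) and Mrpl24 (15.8), and Mrps15 (15.0), Mrps21 (13.7) and Mrps6 (12.3). Mrps14 stood at 3.11 CPM per kilobase in batches 1 to 3 and at 89.5 in batch 4, while Mrpl34 stood at 39.3 and 63.1. Mrps18c stood at 5.83 and 67.4. Across the 73 members Spearman's rho between the log2 difference of batch 4 from batches 1 to 3 and log2 exon length was -0.29, and over 13680 tested genes with a length it was -0.22. This is a description across genes that share the same libraries.

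The promoters of the members were searched for short motifs. RefSeq gave 74 windows for 68 of the members and none for 9. The core of the ETS family motif, CCGGAAG on either strand, was found in 25 of the 74 windows (33.8%), against 16.4% of the 12739 windows of tested genes and 8.86% of all windows. The YY1 motif AAGATGGC was found in 12 (16.2%), against 4.21% and 2.75%. The NRF1 motif GCGCATGCG, named for a factor that regulates nuclear genes of mitochondria, was found in 7 (9.46%), against 3.44% and 1.75%. The start of the ZNF143 motif, ACTACANNT, chosen after the Mrpl34 window was read, was found in 7 (9.46%), against 5.20% and 4.16%; the Mrpl34 window is 1 of the 7, so this share supports nothing. The windows of Mrpl34 and Mrpl43, a pair of genes with a log2 fold change of 0.71 and an unadjusted p under 0.05, are printed to show windows with several copies of 1 motif. Several copies also occur in windows of members not at that level. These are Mrpl32 (3 NRF1), Mrpl39 and Mrpl9 (2 NRF1 each), Mrpl50 (2 ZNF143), and Mrpl52, Mrpl53 and Mrps16 (2 ETS each). A relation between motif copies and fold change was not tested. Mrpl34 (plus strand, chr8:71464676-71464975) has 3 copies of the ZNF143 motif and 1 ETS motif just after the middle copy. Mrpl43 (minus strand, chr19:45006393-45006692) has 2 ETS motifs. Capitals mark these copies, 5′ to 3′ on the gene's strand (RefSeq, GRCm38.p6).
Mrpl34: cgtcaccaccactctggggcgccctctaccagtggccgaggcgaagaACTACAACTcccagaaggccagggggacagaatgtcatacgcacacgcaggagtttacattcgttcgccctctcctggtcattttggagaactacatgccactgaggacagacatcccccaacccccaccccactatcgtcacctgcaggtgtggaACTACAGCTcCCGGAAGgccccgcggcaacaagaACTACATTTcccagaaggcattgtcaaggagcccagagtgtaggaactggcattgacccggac
Mrpl43: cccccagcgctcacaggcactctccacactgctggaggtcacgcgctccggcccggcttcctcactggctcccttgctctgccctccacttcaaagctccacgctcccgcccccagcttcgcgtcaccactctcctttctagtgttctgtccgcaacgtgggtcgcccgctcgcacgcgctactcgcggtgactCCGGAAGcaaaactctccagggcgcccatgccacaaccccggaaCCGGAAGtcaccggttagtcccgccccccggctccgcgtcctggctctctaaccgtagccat
Of the other 7 genes at that level, Mrps18a has 1 ETS and 1 YY1 motif, Mrps18c 1 ETS motif, and Mrpl37 and Mrpl49 1 YY1 motif each. Mrpl46, Mrps6 and Mrpl20 have none of the 4 motifs in these windows. A match is a run of letters and not a measured site.

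The other parts of the mitoribosome and of its supply were read from lists of known genes. The 6 mitoribosomal proteins with other symbols were all positive, with a median log2 fold change of 0.19. Ict1, a peptidyl-tRNA hydrolase built into the large subunit, stood at 39.3, 38.1, 49.6 and 167 CPM in NOD and 34.9, 21.3, 41.7 and 111 CPM in B16A libraries (0.46, SE 0.16; edgeR, adjusted p = 0.763). Chchd1, a small-subunit protein, had 0.54 (SE 0.28; edgeR, adjusted p = 0.876), with ratios of 1.00 and 1.40 in batches 1 and 3 and of -0.42 and 0.00 in batches 2 and 4. Of 22 assembly factors 14 were positive (63.6%, against 51.3% of all tested genes), with a median of 0.04 against 0.01. At an unadjusted p under 0.05 stood 3 (13.6%), all higher in NOD hosts, against 3.55% of all tested genes. Rpusd4, which modifies the large-subunit RNA, was higher in the NOD library of every batch: 7.99, 6.65, 9.85 and 59.5 CPM against 5.11, 2.93, 6.55 and 35.3 CPM (0.77, SE 0.24; edgeR, adjusted p = 0.708). Malsu1, which keeps the subunits from joining too early, had 0.52 (SE 0.22; edgeR, adjusted p = 0.842). The third was Fastkd2, which binds the large-subunit RNA (0.62, SE 0.28; edgeR, adjusted p = 0.844).

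Mitochondrial translation factors (12 tested, 6 positive, median 0.01) and aminoacyl-tRNA synthetases (17 tested, 7 positive, median -0.03) had medians near that of all genes, with 0 at an unadjusted p under 0.05. The regulators of mitochondrial transcription leaned to B16A hosts, with 3 of 13 positive (23.1%, against 51.3% of all tested genes) and a median of -0.21. Of the 3, Myc stood at 0.00. At an unadjusted p under 0.05 stood 2 (15.4%), both lower in NOD hosts, against 2.31% of all tested genes. Esrra, a nuclear receptor for mitochondrial genes, stood at 6.12, 3.88, 2.91 and 2.08 CPM in NOD and 7.22, 11.6, 6.07 and 5.63 CPM in B16A libraries (-1.08, SE 0.42; edgeR, adjusted p = 0.796). Pprc1, a coactivator of the same genes, stood at 57.6, 60.6, 53.3 and 28.6 CPM in NOD and 65.1, 120, 72.4 and 33.3 CPM in B16A libraries (-0.45, SE 0.17; edgeR, adjusted p = 0.789). Both were lower in the NOD library of all 4 batches. The ribosomal RNAs that the proteins assemble on, encoded in mitochondrial DNA, had log2 fold changes of -0.26 (mt-Rnr1, the small-subunit RNA, SE 0.20) and -0.25 (mt-Rnr2, the large-subunit RNA, SE 0.19). In batches 1 to 3 mt-Rnr1 took 30700 to 71600 CPM, and in batch 4 only 2130 (NOD) and 3240 (B16A) CPM, while for mt-Rnr2 the batch 4 values of 18000 and 26700 CPM lay within the 15800 to 33800 CPM of the other libraries. Of 15 mitochondrially encoded mRNAs and rRNAs 9 were tested, and all 9 had a negative fold change (median -0.24), with 0 at an unadjusted p under 0.05. Mean levels of 6 of the 9 were higher in batch 4 than in batches 1 to 3. In batch 3, 8 of the 9 were higher in the NOD library. The other 6 were at or near 0 in every library.

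Of the other gene groups, those for cytosolic ribosomal proteins and respiratory complex I had higher medians than the members over all batches. Cytosolic ribosomal protein genes had a median log2 fold change of 0.26, with 64 of 76 positive, and nuclear genes of respiratory complex I a median of 0.33, with 30 of 35 positive. Both medians were highest in batch 3, at 0.57 and 0.51, where the median of the members was highest too. In batch 2 they were 0.09 and 0.47, against 0.10 for the members, and in batch 4 they were 0.21 and 0.16, against 0.18. Cytosolic ribosomal protein genes have near-identical pseudogenes, and the sources used here do not say how reads that match both were counted. The levels of both groups were higher in batch 4 than in batches 1 to 3, with median log2 differences of 1.99 and 2.32. No gene of any of these lists had an adjusted p under 0.05 (edgeR). At an unadjusted p under 0.05, 21 of 76 cytosolic ribosomal protein genes were higher (27.6%) and 1 lower (1.32%) in NOD hosts, and 13 of 35 complex I genes were higher (37.1%) and 0 lower. Over all tested genes 3.55% were higher and 2.31% lower. The 6 T cell markers had a median of 0.17, against 0.15 for the members, with 5 of 6 positive. At an unadjusted p under 0.05 stood 2 of them (33.3%), both higher in NOD hosts. These were Lck (0.51, SE 0.15; edgeR, adjusted p = 0.683) and Trbc1 (0.51, SE 0.17; edgeR, adjusted p = 0.735). No test compared the groups with each other.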

How the data were processed

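Per the labels' protocols, SeqPlex amplification of RNA from sorted 8F10 T cells was followed by 12 PCR cycles and single 50-base reads. The authors deposited raw counts per gene, whole numbers that are not normalized, in 1 table of 8 libraries. The submitters' processing notes name STAR, HTSeq, DESeq2 and mm10, with the versions, annotation and strand setting not given in the sources used here. Library totals ranged from 4896593 to 6137666 counts in batches 1 to 3, with 28094237 and 28301805 counts in batch 4.

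Libraries were grouped by host from their titles. The test was edgeR 4.0.16 under R 4.3.3 (filterByExpr, TMM, glmQLFit with robust estimation, glmQLFTest), with host and batch as terms and 3 residual degrees of freedom. P-values were adjusted by Benjamini-Hochberg over the 14607 genes tested, with a threshold of 0.05. CPM values use TMM-adjusted library sizes, log2 CPM a prior count of 2, and within-batch ratios are differences of log2 CPM, NOD minus B16A. Standard errors come from the F statistic. The batch numbers pair the libraries because the labels call them batches; across genes, deviations from the group means of the 2 libraries of a batch correlated with r = 0.625, 0.702, 0.611 and 0.906. Pairs from different batches among the first 3 gave 0.465 to 0.741, so the correlations set batch 4 apart and do not themselves show pairing within batches 1 to 3. No 2 libraries agreed within sampling noise (smallest chi-square per degree of freedom 7.04). Intervals and limits cover counting error and the spread between libraries only, and the labels mention no molecular identifiers.

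Alternatives were other scalings and filters, DESeq2 1.42.0, limma 3.58.1 voom, no batch term and leaving out each batch. Members named with full values were those higher or lower in all 4 batches with the smallest p (up to 8 per direction), the 3 most abundant per length of each subunit, landmarks by known role, and the widest and narrowest spread of ratios. The members and lists were chosen with earlier results of these data known. Exon lengths and overlaps come from GENCODE vM21 (GRCm38) and promoter windows from RefSeq (GRCm38.p6). A further B cell marker is not reported here.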

Additional observations from a re-analysis of the deposited data

Results flagged for a closer look

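In 22 of 72 groups of 4 values, 1 library lay farther from the other 3 than Dixon's 95% critical value allows. The rate of about 1 in 20 holds for independent groups. These groups share the same libraries, and most members were already seen to be higher in batch 4. The count is thus a description and is not compared with that rate. All 22 were CPM values of a batch 4 library, for 14 of the 23 members named with full values, and no within-batch ratio was among them. In NOD hosts the batch 4 library stood apart at 208 CPM for Mrpl18, 103 for Mrpl21, 36.7 for Mrpl45, 106 for Mrpl46, 61.6 for Mrpl49, 53.5 for Mrpl54, 342 for Mrps14, 104 for Mrps18a, 75.1 for Mrps18c and 71.9 for Mrps21. In B16A hosts it stood apart at 152 CPM for Mrpl18, 70.8 for Mrpl20, 104 for Mrpl21, 75.5 for Mrpl46, 39.2 for Mrpl49, 24.3 for Mrpl51, 39.6 for Mrps12, 241 for Mrps14, 98.6 for Mrps18a, 70.0 for Mrps18c, 81.0 for Mrps21 and 12.6 for Mrps36. Both libraries of batch 4 stood apart for Mrpl18, Mrpl21, Mrpl46, Mrpl49, Mrps14, Mrps18a, Mrps18c and Mrps21.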

How the results depend on the processing

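In each of the 12 alternatives 0 members had an adjusted p under 0.05, and the members' median log2 fold change stayed positive, from 0.12 to 0.19, with 43 to 58 members positive. With DESeq2 most of the named members had no adjusted p and could not be called. Over all genes, the count called was 14 without a filter on low counts, 27 with DESeq2 and 9 with limma voom, and 0 to 32 when a batch was left out. The 9 members higher in NOD hosts at an unadjusted p under 0.05 became 1 without the replicate block, 5 to 10 when a batch was left out, and 5 without batch 4 and without the replicate block. The share of all tested genes at that level, in either direction, was 5.87% in the main fit. In these alternatives it was 0.233%, 3.4% to 8.37%, and 4.48%, and it was highest without batch 4, where the members' count of 10 was highest too. The small-subunit median was 0.04 to 0.21 with a batch left out and 0.21 without batch 4 and the replicate block. With a batch left out, the log2 fold changes of 6 named members changed sign, over -0.07 to 0.02 for Mrpl54, -0.09 to 0.32 for Mrps12, -0.11 to 0.29 for Mrps14, -0.05 to 0.20 for Mrps18b, -0.04 to 0.78 for Mrps30 and -0.16 to 0.61 for Mrps36, which was too low to test without batch 4. Others kept their sign but moved by over 1.5 times: without batch 2 Mrpl12 (0.22), Mrpl38 (-0.22), Mrpl45 (0.17), Mrps21 (-0.01) and Mrps25 (0.20), without batch 4 Mrpl18 (0.14) and Mrpl37 (0.26), without batch 1 Mrpl45 (0.59), and Mrpl21, over 0.02 to 0.06. Without the replicate block Mrpl54 was 0.02, Mrps12 -0.03, Mrps30 -0.05 and Mrps36 -0.05. In that setting Mrps18c and Mrps18a fell to 0.23 each and Mrpl21 to 0.01. Mrpl18 rose to 0.38, Mrps14 to 0.45 and Mrps18b to 0.17. With limma voom Mrps25 was 0.29, Mrpl45 0.18, Mrps30 0.14, Mrps36 0.12, Mrps21 -0.14 and Mrps12 0.21. Without batch 4 and the replicate block Mrps14 was -0.10 and Mrps18b -0.03. The cause was not tested. Placing members by structure, an alternative chosen after seeing the data, gave medians of 0.15 and 0.10. With 59 to 86 counts for the median member in batches 1 to 3, counting error limits single genes there.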
